A study of Mus musculus with 14 samples.

Results

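The 9 genes described here encode proteins of the extracellular matrix that bind cells and tune their adhesion: Fn1 (fibronectin), Postn (periostin), Tnc (tenascin C), Thbs1 and Thbs2 (thrombospondins), Spp1 (osteopontin), Vcan (versican), Sparc (osteonectin) and Aspn (asporin). They were chosen by name from the 40481 genes with a bulk count, and all 9 were abundant enough to be tested. They were measured in the muscularis, the muscle coat of the gut wall, of C57BL/6 mice whose genotype labels are "WT mTmG" (called WT) and "Carmn iKO" (called KO). Carmn makes a long non-coding RNA known from smooth muscle, and mTmG is a reporter allele that Cre recombinase switches from a red to a green membrane protein. Bulk RNA-seq covered 4 groups of 3 libraries: WT colon (tags t1, t6 and t7), KO colon (m1, t4 and t6), WT jejunum (t1, t6 and t7) and KO jejunum (m1, t1 and t4). Nuclei of the colon were sequenced in 1 library per genotype. How, where and when Carmn was deleted, whether the KO mice carried the reporter, and the mice's age, sex and treatment, are not stated in the labels. Nothing says that libraries came from separate animals, so the p-values measure the spread between these libraries, which may be technical.

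Fibronectin forms fibrils around cells and is bound mainly by integrins, and other matrix proteins are laid down on it. Matricellular proteins such as tenascin C, periostin, the thrombospondins, osteopontin and SPARC are not mainly structural: they are made in quantity during development and repair and alter how cells hold on to the matrix, partly through integrins and transforming growth factor beta. In the gut muscularis, smooth muscle cells, fibroblasts and interstitial cells all lay down matrix.

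Promoter sequence is shown for Postn, Tnc and Thbs2, because the start sites of these genes lay inside a region of accessible chromatin in 1 of the 2 libraries of nuclei (Postn and Thbs2 in KO, Tnc in WT). Each line gives the 250 bases before the start site, 5′ to 3′ on the gene's strand, from RefSeq on GRCm38.p6. The stretches are chr3:54360857-54361106 (plus strand), chr4:64047016-64047265 (minus strand) and chr17:14694263-14694512 (minus strand). Capitals mark the letters TATAAA on either strand.
Postn: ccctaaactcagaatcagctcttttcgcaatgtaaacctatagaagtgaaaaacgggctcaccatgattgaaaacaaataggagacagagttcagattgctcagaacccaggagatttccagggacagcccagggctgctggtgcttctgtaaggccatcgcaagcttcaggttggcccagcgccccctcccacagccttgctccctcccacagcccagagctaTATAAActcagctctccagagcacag
Tnc: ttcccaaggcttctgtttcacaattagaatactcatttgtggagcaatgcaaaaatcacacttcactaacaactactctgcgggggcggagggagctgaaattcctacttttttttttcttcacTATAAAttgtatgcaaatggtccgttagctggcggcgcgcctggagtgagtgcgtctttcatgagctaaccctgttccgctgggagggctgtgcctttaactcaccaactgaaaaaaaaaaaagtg
Thbs2: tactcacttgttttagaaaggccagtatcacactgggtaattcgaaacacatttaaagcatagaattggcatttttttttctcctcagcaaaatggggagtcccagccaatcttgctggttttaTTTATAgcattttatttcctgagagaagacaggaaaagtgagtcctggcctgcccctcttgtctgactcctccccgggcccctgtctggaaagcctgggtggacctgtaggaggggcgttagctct
The match in Postn lay 26 to 21 bases before the start site, and those in Tnc and Thbs2 lay 126 to 121 bases before it. Promoters were found for 7 of the 9 genes, in 10 windows, and 6 of these windows held TATAAA, against 12.4% of 32851 promoters of the same length. The 2 Tnc windows overlap, and their matches are the same bases. None of the 10 windows held a CArG box (in 1.47% of promoters), the TEAD core CATTCC (12.6%), the AP-1 site TGANTCA (6.75%) or the SMAD palindrome GTCTAGAC (0.167%), each searched on both strands. None of these motifs overlaps another in the windows shown, and a match describes the letters only.

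Bulk libraries held 24254905 to 44315104 counts each. Values in bulk tissue are counts per 1000000 (CPM) of a TMM-scaled library total. Carmn itself was higher in the libraries labelled KO, at 304 to 718 CPM against 171 to 351 in WT colon and 817 to 996 against 206 to 326 in WT jejunum. Bvht, another long non-coding RNA, named here after its values were seen, was lower in all KO-labelled libraries, at 4.79 to 8.01 CPM against 27.5 to 67.4 in colon (log2 fold change -2.88, edgeR adjusted p = 0.00738) and 5.03 to 8.08 against 39.0 to 54.6 in jejunum (-2.76, edgeR adjusted p = 0.0131). Which part of Carmn was removed is not stated, so its count by itself checks nothing, and the bulk groups are called KO-labelled from here on. In the colon nuclei Carmn was lower in KO, at 219.6 against 661 UMIs per 1000000 UMIs. Bvht was not lower there, at 1.99 in KO (95% counting interval 1.03 to 3.47) against 1.45 in WT (0.751 to 2.54), on 12 UMIs each. KO-labelled colon t4 and KO-labelled jejunum m1 lay apart from all other libraries on the first 2 principal components (-114 on the first, -110 on the second). Fold changes of the 9 genes between KO-labelled and WT are therefore also given without them, an alternative chosen after seeing the data. Beside them, the summed level of 9 fibroblast markers was 13531 CPM in KO-labelled colon t4 and 7848 in KO-labelled jejunum m1, against 2696 to 6678 in the other 10 libraries. The sum of 8 macrophage markers was 1784 and 2064 CPM, against 204 to 1118, and no marker of either list was at 0. The part of these markers in the results was not tested. In bulk tissue, fewer cells of a type and less RNA per cell cannot be told apart.

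Together the 9 genes took 0.546% to 0.876% of all counts in WT colon and 0.271% to 0.297% in WT jejunum. In the KO-labelled colon libraries they took 0.986% (m1), 3.04% (t4) and 1.07% (t6), and in the KO-labelled jejunum libraries 1.86% (m1), 0.757% (t1) and 0.718% (t4). In this total every KO-labelled library was thus above every WT library of the same tissue. In colon Fn1 alone took 0.661% (m1), 1.85% (t4) and 0.772% (t6) in the KO-labelled libraries. In WT colon it took 0.289% to 0.479%. None of the other genes lay wholly above WT in colon, so the colon total does not describe each gene. Fn1 was the largest contributor in all 12 libraries. Per kilobase of exon, the scale on which genes can be compared, Fn1 stood highest in WT colon (325 ± 87.5 CPM per kb, SD, n = 3), followed by Sparc (186 ± 35.4) and Tnc (123 ± 40.4). In WT jejunum Sparc (137 ± 16.3) stood above Fn1 (109.9 ± 6.26), a gap larger than either SD. Spp1 and Vcan were lowest in both, at 1.31 to 3.76 CPM per kb, and Spp1 (1.47 ± 1.21) and Vcan (1.31 ± 0.320) in WT jejunum did not differ beyond their spread.

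**Figure D1:**
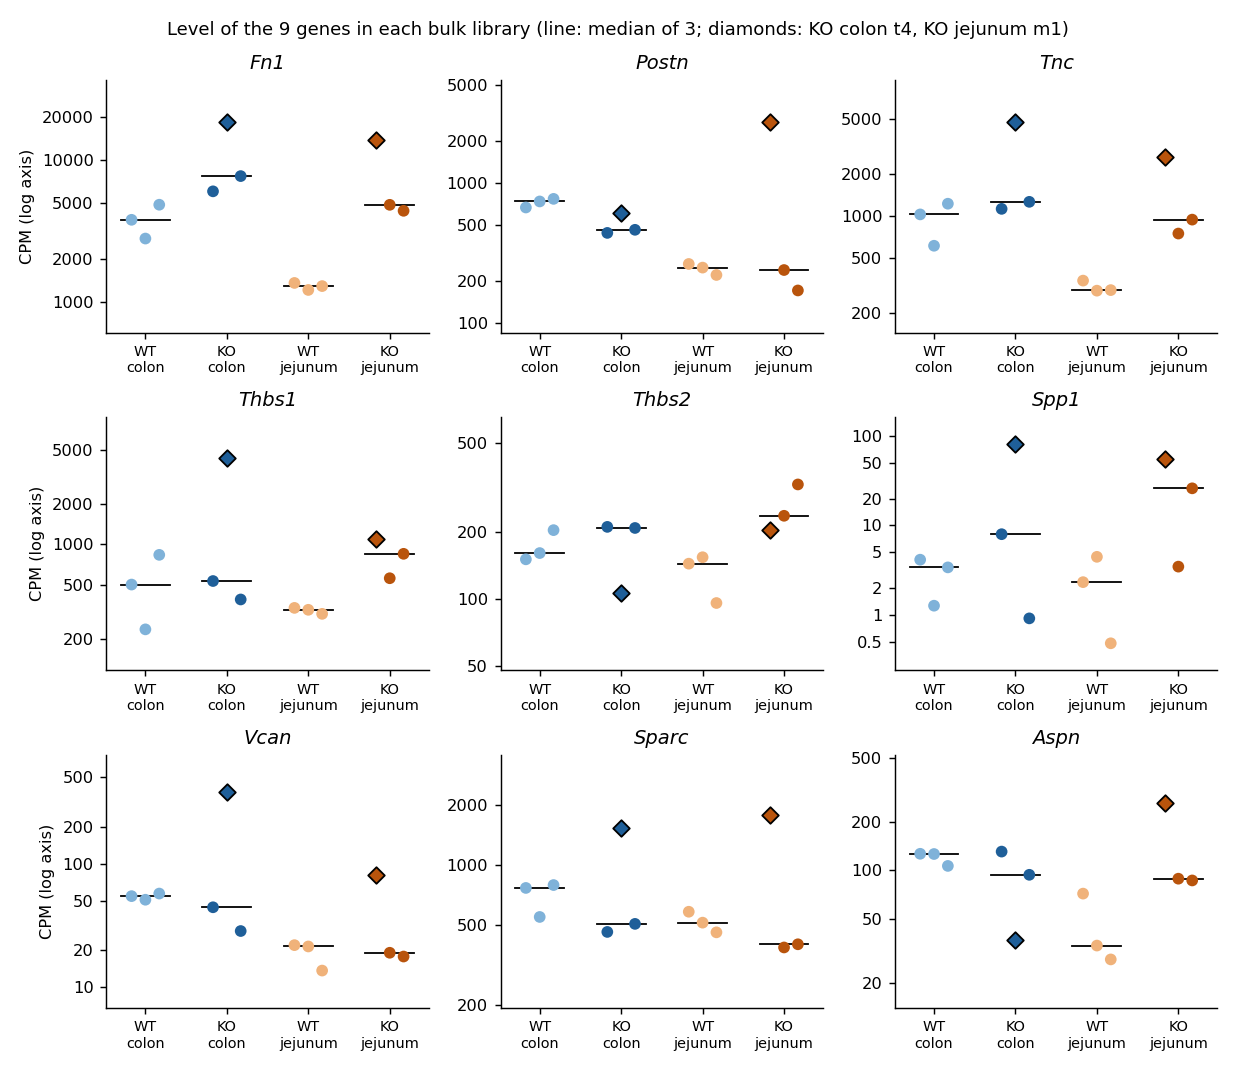
Level of each of the 9 genes in the 12 bulk libraries, as CPM on a log axis, by group. Points are libraries, lines are medians of 3, and diamonds mark KO-labelled colon t4 and KO-labelled jejunum m1. Fn1 is higher in every KO-labelled library than in any WT library of its tissue, and the diamonds are the highest values of their group for all but Thbs2 in both tissues and Aspn in colon, where they are the lowest.

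Fn1 (ENSMUSG00000026193, chromosome 1, 71585520 to 71653200, minus strand, GRCm38) encodes fibronectin, the fibril-forming ligand of integrin alpha5 beta1. In colon it stood at 3784 (t1), 2790 (t6) and 4835 (t7) CPM in WT and at 6011 (m1), 18442 (t4) and 7701 (t6) CPM in the KO-labelled libraries. In jejunum it stood at 1356 (t1), 1210 (t6) and 1288 (t7) CPM in WT and at 13949 (m1), 4828 (t1) and 4380 (t4) CPM in the KO-labelled libraries. The KO-labelled and WT values did not overlap in either tissue, which held in both tissues for 2.90% of the 20886 genes tested. Its log2 fold changes, 1.49 (SE 0.51) in colon and 2.59 (SE 0.53) in jejunum, were both positive, and neither passed edgeR's quasi-likelihood test with Benjamini-Hochberg adjustment over all genes (adjusted p = 0.216 and 0.0777). Without KO-labelled colon t4 and KO-labelled jejunum m1 edgeR gave 0.87 (adjusted p = 0.0992) and 1.82 (adjusted p = 0.0148). The jejunum value was also past the threshold of 0.05 without KO-labelled colon t4 alone (edgeR adjusted p = 0.0316, 0.796% of all genes called). Fn1 was thus the gene of the 9 whose KO-labelled values separated from WT upwards in both tissues.

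Tnc (ENSMUSG00000028364, chromosome 4, 63959785 to 64047015, minus strand) encodes tenascin C, which binds fibronectin and weakens cell attachment to it. Its levels were 1029 (t1), 613 (t6) and 1228 (t7) CPM in WT colon and 1127 (m1), 4765 (t4) and 1266 (t6) CPM in KO-labelled colon. The colon groups overlapped, since KO-labelled m1 lay below WT t7. In jejunum Tnc stood at 344 (t1), 292 (t6) and 294 (t7) CPM in WT and at 2679 (m1), 749.8 (t1) and 944 (t4) CPM in the KO-labelled libraries, with no overlap. EdgeR gave Tnc a log2 fold change of 1.32 in colon (SE 0.60, adjusted p = 0.346) and of 2.23 in jejunum (SE 0.62, adjusted p = 0.166). Without KO-labelled colon t4 and KO-labelled jejunum m1 the colon value was 0.34 (edgeR adjusted p = 0.525) and the jejunum value 1.42 (edgeR adjusted p = 0.0432). Across the 12 libraries Tnc was the gene most like Fn1 among 14280 genes compared (Pearson r of log2 CPM 0.978, and 0.965 without those 2 libraries), a description over libraries that share tissue and genotype.

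Postn (ENSMUSG00000027750, chromosome 3, 54361109 to 54391037, plus strand) encodes periostin, an integrin ligand that binds collagen and tenascin C. WT colon held 671 (t1), 741 (t6) and 773 (t7) CPM, and all 3 KO-labelled colon libraries lay below them, at 442 (m1), 618 (t4) and 465 (t6) CPM. In WT jejunum it stood at 265 (t1), 249.7 (t6) and 221 (t7) CPM, and KO-labelled jejunum held 2744 (m1), 240.0 (t1) and 171 (t4) CPM. The jejunum groups overlapped, and m1 alone stood above WT. EdgeR put the Postn difference at -0.52 on the log2 scale in colon (SE 0.80, adjusted p = 0.831) and at 2.10 in jejunum (SE 0.83, adjusted p = 0.319). Without KO-labelled colon t4 and KO-labelled jejunum m1 the jejunum value turned to -0.28 (edgeR adjusted p = 0.572), while the colon value was -0.67 (edgeR adjusted p = 0.0960). Postn was thus the only gene of the 9 whose colon values lay wholly below WT.

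Thbs1 (chromosome 2, 118111876 to 118127133, plus strand) and Thbs2 (chromosome 17, 14665500 to 14694235, minus strand) encode secreted thrombospondins that bind CD36 and CD47, and thrombospondin 1 can release transforming growth factor beta from its latent form. Thbs1 stood at 506 (t1), 236 (t6) and 838 (t7) CPM in WT colon and at 537 (m1), 4333 (t4) and 393 (t6) CPM in KO-labelled colon. The high colon mean of Thbs1 rested on t4, and its log2 fold change, 1.74 with all libraries (SE 0.80, adjusted p by edgeR 0.353), was -0.18 without t4. In jejunum it stood at 340.3 (t1), 329 (t6) and 308 (t7) CPM in WT and at 1101 (m1), 563 (t1) and 852 (t4) CPM in the KO-labelled libraries, without overlap. That difference was 1.36 on the log2 scale (SE 0.79, adjusted p by edgeR 0.489) and 1.09 without the libraries that stand apart, where the colon value was -0.17.
Thbs2 levels in colon overlapped, with 150.2 (t1), 160.2 (t6) and 203 (t7) CPM in WT and 209.9 (m1), 106 (t4) and 208 (t6) CPM in the KO-labelled libraries. In jejunum all 3 KO-labelled libraries, at 204 (m1), 235 (t1) and 325 (t4) CPM, were above WT, at 144 (t1), 153 (t6) and 95.7 (t7) CPM. For Thbs2 edgeR gave 0.03 on the log2 scale in colon (SE 0.29, adjusted p = 0.982) and 0.96 in jejunum (SE 0.29, adjusted p = 0.198), and without the libraries that stand apart 0.30 and 1.07 (edgeR adjusted p = 0.511 and 0.0682). For Thbs2, unlike most of the genes, KO-labelled colon t4 and KO-labelled jejunum m1 were the lowest of their groups.

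Spp1 (chromosome 5, 104435118 to 104441050, plus strand) encodes osteopontin, an integrin and CD44 ligand made by activated macrophages among other cells. It was the least abundant of the genes in WT tissue by CPM, at 4.14 (t1), 1.26 (t6) and 3.39 (t7) CPM in WT colon and 2.32 (t1), 4.46 (t6) and 0.480 (t7) CPM in WT jejunum. KO-labelled colon held 7.99 (m1), 81.4 (t4) and 0.912 (t6) CPM, and KO-labelled jejunum held 55.5 (m1), 3.46 (t1) and 26.1 (t4) CPM. Both comparisons overlapped, because KO-labelled colon t6 was below all WT colon libraries and KO-labelled jejunum t1 was below WT t6. Its log2 fold changes were the largest of the 9 genes and the least precise, at 3.36 (SE 1.45, edgeR adjusted p = 0.325) in colon and 3.55 (SE 1.46, edgeR adjusted p = 0.339) in jejunum. The 3 libraries with the highest Spp1 were also the 3 with the highest sum of macrophage markers (KO-labelled colon t4, jejunum m1 and jejunum t4). The part of these markers in the Spp1 values was not tested. Without the libraries that stand apart the Spp1 values were 0.61 and 2.58.

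Vcan (chromosome 13, 89655312 to 89742509, minus strand) encodes versican, a large proteoglycan that binds hyaluronan. It stood at 54.7 (t1), 51.1 (t6) and 57.4 (t7) CPM in WT colon, and in KO-labelled colon at 44.4 (m1), 381 (t4) and 28.5 (t6) CPM, so that 1 library was above and 2 were below all WT values. In jejunum it stood at 21.9 (t1), 21.4 (t6) and 13.6 (t7) CPM in WT and at 80.7 (m1), 19.0 (t1) and 17.7 (t4) CPM in the KO-labelled libraries. Sparc (chromosome 11, 55394500 to 55423183, minus strand) encodes a collagen-binding glycoprotein that counters adhesion. Sparc had the same layout in colon, with 768 (t1), 550.4 (t6) and 794 (t7) CPM in WT colon against 463 (m1), 1536 (t4) and 508 (t6) CPM, that is 1 library above and 2 below all WT values. In jejunum it stood at 584 (t1), 516 (t6) and 461 (t7) CPM in WT and at 1775 (m1), 388 (t1) and 402 (t4) CPM in the KO-labelled libraries. There t1 and t4 lay below all WT values for Sparc and inside the WT range for Vcan. Without the libraries that stand apart, the log2 fold changes of Vcan and Sparc turned negative in both tissues. They were -0.56 and -0.52 in colon and -0.07 and -0.42 in jejunum, and with all libraries 1.48 and 0.25 in colon and 1.04 and 0.72 in jejunum, none past the threshold (edgeR adjusted p of at least 0.193 in all 8).

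Aspn (chromosome 13, 49544443 to 49567565, plus strand) encodes asporin, a small leucine-rich proteoglycan that binds collagen and transforming growth factor beta. It held 127 (t1), 126 (t6) and 107 (t7) CPM in WT colon and 131 (m1), 37.0 (t4) and 93.8 (t6) CPM in KO-labelled colon, overlapping. In jejunum the KO-labelled libraries, at 262 (m1), 88.7 (t1) and 86.5 (t4) CPM, lay above WT, at 71.6 (t1), 34.0 (t6) and 27.9 (t7) CPM. By edgeR its log2 fold change was -0.46 in colon (SE 0.54, adjusted p = 0.762) and 1.71 in jejunum (SE 0.55, adjusted p = 0.221), and it was -0.08 and 0.96 without the libraries that stand apart. The sign of the Aspn value thus differed between tissues, as it did for Postn with all libraries. The counts of Fn1, Tnc, Thbs1, Spp1 and Aspn are uncertain to the extent that their exons overlap those of another gene (Apol7d, 8030451A03Rik, Gm29233, Gm42793 and Cenpp). The use of strand in counting is not stated, and Gm42793 lies on the same strand as Spp1, where strand would not separate the reads.

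Counted together, none of the 9 genes was called in colon by edgeR at an adjusted p under 0.05, where 0.388% of all genes were called. Fn1 and Spp1 had an unadjusted p under 0.05 (14.5% of all genes), and none was called by DESeq2 (4.62% of all genes) or by limma voom (0.455%). In jejunum edgeR called none (0.215% of all genes), 6 had an unadjusted p under 0.05 (13.2% of all genes), limma voom called none (0.364%), and DESeq2 called 3, Fn1, Tnc and Aspn (3.87% of all genes). In colon Fn1 lay wholly above WT (8.79% of all genes) and Postn wholly below (10.4%). In jejunum 5 genes, Fn1, Tnc, Thbs1, Thbs2 and Aspn, lay wholly above WT (11.0%). For 3 libraries against 3 such a separation gives a two-sided exact permutation p of 0.1, the smallest possible. The log2 fold change was above 0 for 7 of 9 in colon (50.3% of all genes) and 9 of 9 in jejunum (51.5%). Without both libraries that stand apart edgeR called none of the 9 in colon (1.44% of all genes) and Fn1 and Tnc in jejunum (0.676%). The median of the 9 was 1.32 in colon and 1.71 in jejunum, against 0.00 and 0.02 over all genes. Without KO-labelled colon t4 the colon count was 4 of 9 and the median -0.09. Without KO-labelled jejunum m1 the jejunum count was 6 of 9 and the median 1.07.

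**Figure D2:**
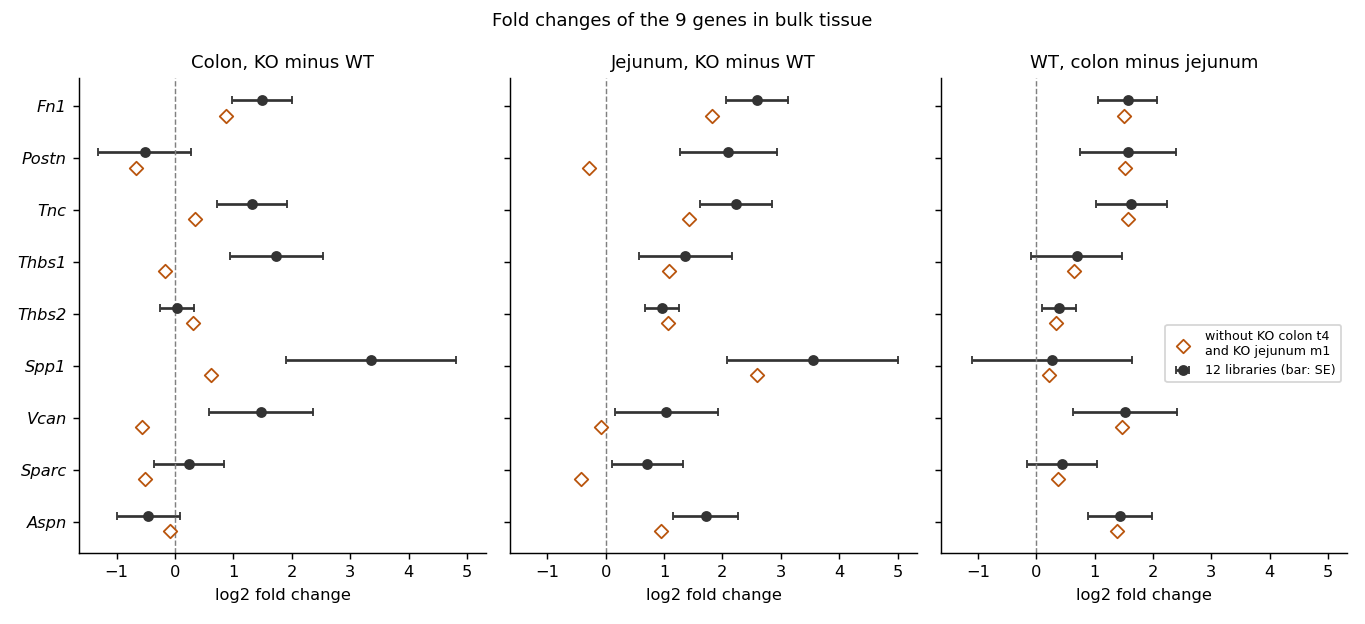
Log2 fold change of each gene in bulk tissue in 3 comparisons. Filled circles with SE bars use all 12 libraries, and open diamonds leave out KO-labelled colon t4 and KO-labelled jejunum m1. In colon the diamonds of Postn, Thbs1, Vcan, Sparc and Aspn lie below 0, in jejunum those of Fn1 (1.82), Tnc (1.42), Thbs1, Thbs2 and Spp1 stay above 1 while those of Postn (-0.28), Vcan and Sparc lie below 0, and between WT tissues circles and diamonds coincide within the SE.

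The 2 genotype effects were compared directly by the interaction of genotype and tissue, which edgeR called for 0 of 20886 genes, with or without the libraries that stand apart. The difference was above 0 for 2 of the 9 genes (47.9% of all genes) and below 0 for 7. Postn (-2.62 on the log2 scale, SE 1.15), Aspn (-2.17, SE 0.77) and Thbs2 (-0.93, SE 0.41) had an unadjusted p under 0.05 (4.16% of all genes), with an edgeR adjusted p of 0.941 each. DESeq2 called none of the 9 (0.178% of all genes), and limma voom called 0 of all genes. Without both libraries that stand apart these values were -0.39 for Postn, -1.03 for Aspn and -0.77 for Thbs2.

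Between the tissues of WT mice, all 9 genes had a higher mean in colon than in jejunum (54.3% of all genes had a log2 fold change above 0), with a median log2 fold change of 1.43 against 0.04 over all genes. Fn1, Postn, Tnc, Vcan and Aspn did not overlap (11.2% of all genes lay wholly higher in colon). Their log2 fold changes were 1.57 (SE 0.51), 1.57 (SE 0.82), 1.62 (SE 0.61), 1.52 (SE 0.89) and 1.43 (SE 0.55), and with all libraries edgeR called none of them (adjusted p from 0.184 to 0.527, 1.56% of all genes called), although Fn1, Tnc and Aspn had an unadjusted p under 0.05 (13.1% of all genes). DESeq2 called Fn1 (5.58% of all genes), and limma voom called none (1.68%). The 4 groups share 1 estimate of the spread. Without the libraries that stand apart all 5 were called (4.92% of all genes), with edgeR adjusted p of 0.00379 for Fn1, 0.000613 for Postn, 0.00526 for Tnc, 0.0038 for Vcan and 0.0397 for Aspn, at log2 fold changes of 1.38 to 1.57. Without KO-labelled jejunum m1 alone, Postn was called (2.57% of all genes). In the 6 WT libraries alone, 4 were called, Fn1, Postn, Tnc and Vcan (4.66% of all genes). Thbs1, Thbs2, Spp1 and Sparc overlapped, with log2 fold changes of 0.69 (SE 0.78), 0.39 (SE 0.29), 0.28 (SE 1.37) and 0.44 (SE 0.60).

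Between KO-labelled colon and KO-labelled jejunum no gene of the 9 lay wholly higher or lower (19.6% of all genes did). EdgeR called none (1.29% of all genes), none had an unadjusted p under 0.05 (17.7%), and neither DESeq2 (6.87%) nor limma voom (1.41%) called any. The log2 fold change was above 0 for 5 of 9 (52.2% of all genes), with a median of 0.09 against 0.03 over all genes. The largest was that of Vcan at 1.95 (SE 0.90, edgeR adjusted p = 0.289), which was -0.10 without KO-labelled colon t4. Postn stood at -1.05 (SE 0.81, edgeR adjusted p = 0.524) and turned to 1.30 without KO-labelled jejunum m1, where it passed the threshold (edgeR adjusted p = 0.0200, 1.70% of all genes). Without both libraries that stand apart it was 1.12 (edgeR adjusted p = 0.0152, 3.24% of all genes).

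Other genes of the same biology were tested as lists. Among 26 other matricellular and adhesive glycoproteins edgeR called 1 higher in colon (0.388% of all genes were called in either direction), Smoc2, a calcium-binding relative of SPARC. Smoc2 had 157 (m1), 175 (t4) and 151 (t6) CPM in KO-labelled colon against 71.7 (t1), 70.2 (t6) and 83.1 (t7) CPM in WT (log2 fold change 1.10, SE 0.18, adjusted p = 0.0320). In jejunum edgeR called 1 lower, Nid2, a basement membrane nidogen (mean 14.3 against 50.9 CPM, log2 fold change -1.83, SE 0.23, adjusted p = 0.0143). The list medians were 0.12 in colon and 0.22 in jejunum. Without the libraries that stand apart Smoc2 stood at 1.06 (adjusted p = 0.0199) and Nid2 at -1.83 (adjusted p = 0.0269). Leaving out 1 library at a time ended the Smoc2 call in 7 of 12 cases (adjusted p from 0.0146 to 0.167) and the Nid2 call in 2 of 12 (WT jejunum t7 and KO-labelled jejunum t4, adjusted p from 0.00907 to 0.0772). Of 11 small leucine-rich proteoglycans, the family of Aspn, 10 were tested and 1 fell in colon, Ogn (osteoglycin). Ogn had 81.0 (m1), 31.4 (t4) and 35.0 (t6) CPM in KO-labelled colon against 317 (t1), 370.1 (t6) and 290.4 (t7) CPM in WT (log2 fold change -2.73, SE 0.49, adjusted p = 0.0458). Leaving out 1 library at a time ended the Ogn call in 9 of 12 cases (adjusted p from 0.0135 to 0.190), and without the libraries that stand apart it was -2.48 (adjusted p = 0.0199). In jejunum none of this list passed. The smallest p-values there were those of Bgn (biglycan, 2.02, adjusted p = 0.122) and Lum (lumican, 1.47, adjusted p = 0.215). The list medians were -0.44 and 0.33.

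None of the 20 integrin and other receptors of these proteins passed edgeR's test in either tissue. The 2 with the smallest p in jejunum were Itga5, the alpha chain of the main fibronectin receptor, at 1240.0 ± 534 CPM against 209 ± 21.5 (SD, n = 3; log2 fold change 2.57, adjusted p = 0.0867, and 2.18 without the libraries that stand apart), and Itgb3, the beta chain of the vitronectin and osteopontin receptor (1.31, adjusted p = 0.161). In colon they were Itga9 (-1.09, adjusted p = 0.0881) and Itga4 (-0.99, adjusted p = 0.113). Of the 20 receptors, 6 had an unadjusted p under 0.05 and a higher level in jejunum, and in colon 1 was higher and 5 were lower on that count (13.2% of all genes in jejunum and 14.5% in colon, in either direction). The medians were 0.20 in colon and 0.47 in jejunum. Among 10 hyaluronan and large proteoglycan genes tested of 13, none was called. The smallest p-values belonged to Tnfaip6 (2.01, adjusted p = 0.265) and Hapln1 (-0.97, adjusted p = 0.270) in colon and to Cd44 (1.41, adjusted p = 0.308) and Ncan (-0.94, adjusted p = 0.371) in jejunum. None of the 10 genes of transforming growth factor beta signalling was called either. The smallest p-values were those of the ligand genes Tgfb1 (0.88, adjusted p = 0.244) and Tgfb2 (-0.58, adjusted p = 0.398) in colon, and of Tgfb1 (1.16, adjusted p = 0.174) and Ltbp4 (-1.09, adjusted p = 0.305), which encodes a latency protein, in jejunum. The medians were 0.43 and -0.17 for the hyaluronan list and 0.20 and 0.15 for the transforming growth factor list, in colon and jejunum.

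The genes most like each member across the 12 libraries, by Pearson r of log2 CPM over 14280 genes, differed between members. Mybl1 (0.969) and Olfml3 (0.953) followed Tnc for Fn1, and Olfml3 (0.972) and Sh3pxd2b (0.972) followed Fn1 for Tnc. P4ha3, which encodes a subunit of collagen prolyl hydroxylase, was first for Postn (0.919), ahead of the smooth muscle gene Tagln (0.916) and Anapc15 (0.912). Snai1 was first for Thbs1 (0.957), Stard8 for Thbs2 (0.864), Gpaa1 for Spp1 (0.941), Vasp for Vcan (0.953), the fibrillin gene Fbn1 for Sparc (0.956) and Lin7a for Aspn (0.863). These values describe 12 libraries that share 2 tissues and 2 genotypes.

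The nuclei show which cells of the colon muscularis held the transcripts. After filtering, 2632 WT and 1585 KO nuclei were kept, with median UMI counts of 1698 and 1981 (UMIs are unique molecular identifiers, here the deposited gene values divided by 2). The 2 libraries shared 11 barcodes, of which 4 were among the nuclei kept. Clusters were formed without the 9 genes and named from markers. Levels are UMIs per 1000000 UMIs of a class (UPM), with exact 95% Poisson intervals that cover counting error only. Spp1 had 3 UMIs in all 4217 nuclei and is not described further.

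**Figure D3:**
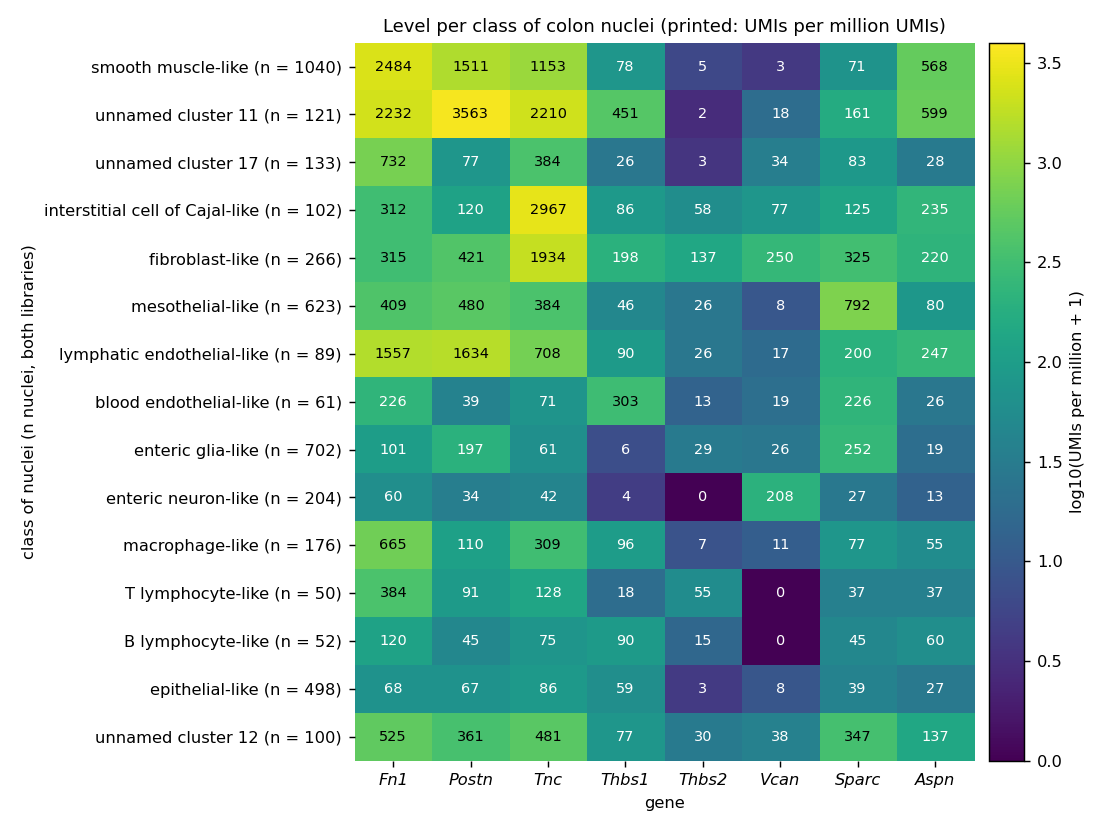
Level of 8 genes in each class of colon nuclei, both libraries together, as UPM (printed) and on a log10 scale (colour). Fn1 and Aspn are high in smooth muscle-like nuclei and unnamed cluster 11, Tnc in interstitial cell of Cajal-like nuclei, Sparc in mesothelial-like nuclei, and Vcan in fibroblast-like and enteric neuron-like nuclei.

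Smooth muscle-like nuclei held 58.6% of all Fn1 UMIs with 19.1% of all UMIs, at 2484 UPM (95% interval 2425 to 2544). Next came the unnamed cluster 11 (leading genes Ctla2a and Fst), whose smooth muscle and pericyte scores were near equal, at 2232. Epithelial-like nuclei held 67.9, which came mostly from few nuclei. In WT, 5 nuclei held 77.3% of the Fn1 UMIs of epithelial-like cluster 2 and 77.4% of those of epithelial-like cluster 4. They had 9760 and 8832 UPM of smooth muscle markers, against 628 and 1322 in the rest. The rest stood at 17.3 and 21.2 UPM of Fn1. With every nucleus thinned to 500 UMIs, 45.0% of smooth muscle-like nuclei had an Fn1 UMI (75.4% unthinned, median depth 1896.5 UMIs), against 2.21% of epithelial-like nuclei (6.63% unthinned, median depth 1402 UMIs). Smooth muscle-like nuclei also held 45.7% of Postn UMIs, 35.5% of Tnc UMIs and 56.5% of Aspn UMIs. With both libraries pooled, cluster 11 had the highest level of Postn (3563 UPM) and Thbs1 (451 UPM) of all classes. In WT Postn stood at 705 UPM there, against 695 in smooth muscle-like nuclei, and in KO at 4313 against 3103. Thbs1 stood at 141 UPM in WT cluster 11, on 16 UMIs, and at 532 in KO. In WT the smooth muscle-like cluster 1 stood above cluster 11 for both genes, at 991 and 206 UPM. Aspn was highest in smooth muscle-like nuclei in each library (410.0 UPM in WT and 876 in KO, against 299.7 and 678 in cluster 11), although with both libraries pooled cluster 11 stood at 599 against 568, since most UMIs of cluster 11 came from KO and most of the smooth muscle-like UMIs from WT. The 3 smooth muscle-like clusters differed in Fn1 with both libraries pooled. Cluster 1 stood at 3682 UPM, cluster 6 at 2415 and cluster 0 at 775. Their makeup differed as well, since cluster 0 held 214 WT and 4 KO nuclei. In WT cluster 6 (1627 UPM) stood above cluster 1 (1176), and in KO below it (3967 against 5732). None of the 3 had a smooth muscle marker among its 10 leading genes and cluster 1 had 1 pericyte marker there (Abcc9), so their name rests on the marker score alone.

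Tnc was highest in nuclei like interstitial cells of Cajal, the Kit-positive pacemaker cells of the gut, at 2967 UPM (2737 to 3210), with 2261 in WT and 3741 in KO. Cluster 11 (1111 in WT and 2499 in KO) and fibroblast-like nuclei (765 in WT and 2547 in KO) came next, in an order that differed between the libraries. After thinning, 62.7% of the Cajal-like nuclei had a Tnc UMI (86.3% unthinned), against 34.2% of fibroblast-like (57.5% unthinned) and 1.61% of epithelial-like nuclei (5.82% unthinned). Vcan had a different distribution. Enteric neuron-like nuclei held 199.5 UPM in WT and 221 in KO and supplied 50.6% of its UMIs, and fibroblast-like nuclei held 172 in WT and 291 in KO. Within the neurons it was concentrated in cluster 18, led by Nos1, at 417 UPM against 44.6 in the other neuronal cluster. Smooth muscle-like nuclei were near 0 for Vcan, with 0.0962% having a UMI after thinning. Sparc was highest in mesothelial-like nuclei, the outer lining of the gut (792 UPM, 36.3% of its UMIs), and 1223 UPM in their cluster 22, which held 96 KO and 4 WT nuclei. Thbs2 was highest in fibroblast-like nuclei (137 UPM).

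KO and WT nuclei were compared within clusters as a description, since 1 library per genotype allows no test. Over all nuclei Fn1 stood at 1366 UPM in KO against 400.2 in WT (ratio 3.41, counting interval 3.28 to 3.55), Postn at 1162 against 243 (4.78), Tnc at 1033 against 318 (3.24), Thbs1 at 126 against 38.0 (3.31) and Sparc at 386 against 126 (3.07). Aspn (1.97), Thbs2 (1.68) and Vcan (1.49) had smaller ratios. So 5 of 8 genes were at least 2-fold higher in KO, against 8.03% of 15198 genes with at least 20 UMIs, and the median ratio of the 8 was 3.15 against 1.04. These totals also move with the makeup of the libraries: cluster 0, smooth muscle-like, held 214 WT and 4 KO nuclei and was the lowest of the 3 smooth muscle-like clusters for Fn1 (775 UPM, both libraries).

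Inside clusters 1 and 6, which both libraries filled, Fn1 and Postn were also higher in KO. They are compared by number because of the leading genes of cluster 1. In cluster 1 (239 WT and 200 KO nuclei, led by Igfbp2 and Fgf7) Fn1 stood at 5732 against 1176 UPM (4.87, 4.46 to 5.33), Postn at 3953 against 991 (3.99) and Tnc at 2489 against 952 (2.61), while Aspn had a ratio of 1.36 and Thbs1 of 0.556. Of 6 genes measured there, 3 were at least 2-fold higher (6.68% of all genes). In cluster 6 (267 WT and 116 KO nuclei, led by Angptl7 and Actn2) the ratios were 2.44 for Fn1, 2.41 for Postn, 2.02 for Aspn and 1.4 for Tnc, with 3 of 6 genes at least 2-fold higher (4.51% of all genes). Smooth muscle markers differed little between the libraries in these clusters, at 22251 and 19919 UPM in KO and WT cluster 1 and at 29119 and 31602 in cluster 6. In KO cluster 1 the 5 nuclei richest in Fn1 held 27.5% of its UMIs, and the remaining nuclei stood at 4682 UPM, against 999 in WT. The 5 richest in Postn held 35.8% of its UMIs, and the remaining nuclei stood at 2758 UPM, against 874 in WT. Those 5 for Postn had 27674 UPM of smooth muscle markers, against 21776 in the rest. In cluster 11 (42 WT and 79 KO nuclei) all 6 genes measured were at least 2-fold higher in KO (14.9% of all genes), led by Postn at 4313 against 705 UPM (6.12) and Fn1 at 2670 against 564 (4.73). The 5 richest nuclei of KO cluster 11 held 28.9% of the Postn, 36.4% of the Fn1 and 40.9% of the Thbs1 UMIs.

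**Figure D4:**
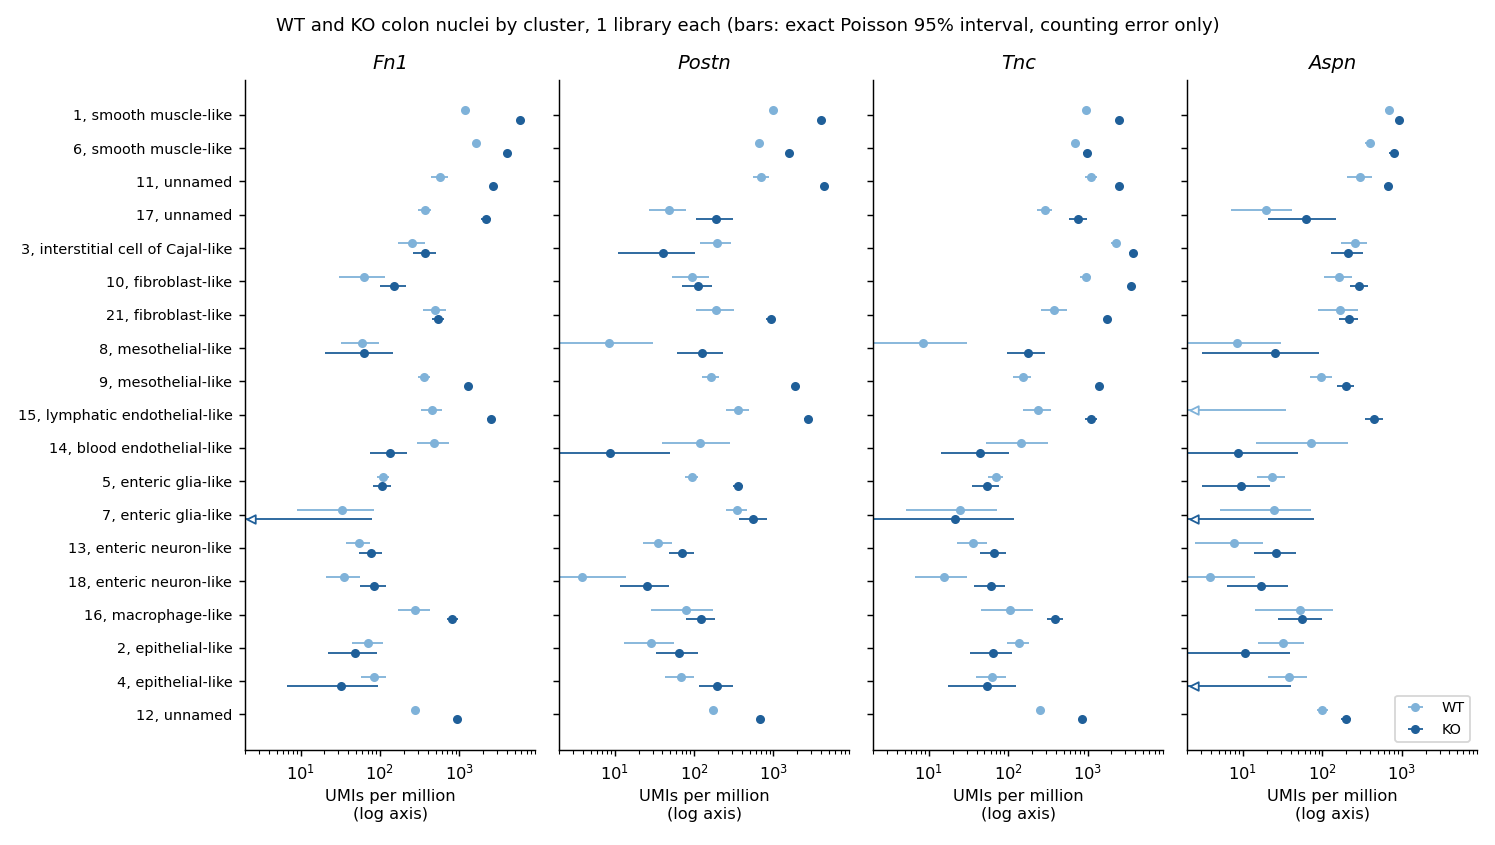
Level of Fn1, Postn, Tnc and Aspn in WT and KO colon nuclei by cluster, as UPM on a log axis with exact 95% Poisson intervals for counting error. An arrow marks 0 UMIs. The clusters are those with enough nuclei of both libraries for a ratio. KO lies above WT for Fn1 and Postn in clusters 1, 6 and 11. Fn1 is level in enteric glia-like cluster 5 (ratio 0.98). It is close in fibroblast-like cluster 21 (1.09), where 5 nuclei of each library hold most of its UMIs.

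In the fibroblast-like clusters the gene with the most UMIs and a ratio above 2 was Tnc. In cluster 10, marked by Pdgfra, Tnc stood at 3561 against 955 UPM (3.73, 3.13 to 4.47), Sparc at 272 against 101 (2.70) Thbs1 at 292 against 37.7 (7.75) and Fn1, on 29 and 10 UMIs, at 149 against 62.8 (2.37), with 4 of 8 genes at least 2-fold higher (8.96% of all genes). The 5 nuclei richest in Thbs1 held 73.7% of its UMIs in KO cluster 10, so that ratio rests on few nuclei, while those richest in Tnc held 43.5% and the rest stood at 2421 against 725 UPM. In cluster 21, marked by Pi16, Tnc stood at 1782 against 381 UPM (4.67), Thbs1 had 74 UMIs against 0, and Fn1 had a ratio of 1.09 (0.76 to 1.60), with 4 of 7 at least 2-fold higher (13.8% of all genes). Here the 5 nuclei richest in each gene held 67.7% of the Tnc and 83.8% of the Thbs1 UMIs in KO. They had 2688 and 1832 UPM of smooth muscle markers, against 1011 and 1333 in the rest. For Fn1 the 5 richest nuclei held 84.6% of its UMIs in WT and 69.3% in KO. They had 6483 UPM of smooth muscle markers in WT, against 1002 in the rest, and 2740 in KO, against 892. Without the 5 richest nuclei of each library Fn1 stood at 232 UPM in KO against 118 in WT, so its ratio rests on few nuclei. In the Cajal-like cluster 3 the Tnc ratio was 1.65 (1.4 to 1.95) and that of Fn1 1.45 (0.86 to 2.46), whose interval includes 1, with 1 of 5 genes at least 2-fold higher (6.28% of all genes). Postn was lower there, at 40.2 against 192 UPM (0.21, 0.05 to 0.62, on 4 and 21 UMIs). Of the 21 WT UMIs, 85.7% lay in 5 nuclei with 10047 UPM of smooth muscle markers, against 2089 in the rest. The rest of the WT nuclei stood at 31.0 UPM of Postn, so the lower KO value rests on those 5 nuclei. For Fn1 the 5 richest nuclei held 60.7% of its UMIs in WT and 48.6% in KO. The remaining nuclei of cluster 3 stood at 231 UPM of Fn1 in KO against 116 in WT. In enteric glia-like cluster 5 Postn was at 359.7 against 93.9 UPM (3.83), while Fn1 (0.98) and Tnc (0.77) had intervals that include 1. The 5 nuclei richest in Postn held 46.8% of its UMIs in KO cluster 5 and 20.9% in WT. Those of KO had 1718 UPM of smooth muscle markers against 400 in the rest. Without the 5 richest nuclei of each library Postn stood at 204 against 75.8 UPM. Vcan in the Nos1-expressing neurons of cluster 18 had a ratio of 0.94 (0.75 to 1.17).

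High values in some other clusters came from few nuclei. In KO clusters 15, 9 and 16 the nuclei richest in Fn1, Postn or Tnc also held more smooth muscle transcripts than the rest. For Sparc the 5 richest nuclei held fewer, at 5890 against 11930 UPM of smooth muscle markers in KO cluster 15 and 616 against 7420 in KO cluster 9. In lymphatic endothelial-like cluster 15 all 6 genes measured were at least 2-fold higher in KO (9.03% of all genes), with ratios of 7.55 for Postn and 5.49 for Fn1 and with 58 Aspn UMIs against 0. The 5 nuclei richest in each gene held 88.0% of the Fn1, 89.0% of the Postn and 98.3% of the Aspn UMIs. Those 5 for Postn had 15395 UPM of smooth muscle markers, against 4487 in the rest of the cluster. In mesothelial-like cluster 9 all 6 genes were at least 2-fold higher (6.41% of all genes), with ratios of 11.6 for Postn and 9.20 for Tnc, but 5 nuclei held 88.9% of the Postn and 92.0% of the Tnc UMIs in KO, and they had 13074 and 12722 UPM of smooth muscle markers against 5227 and 4958 in the rest. Sparc in cluster 9 was spread more widely (41.7% in 5 nuclei), at 1119 against 467 UPM. In mesothelial-like cluster 8 the 1 gene measured was not 2-fold higher (5.34% of all genes). In macrophage-like cluster 16, 84.4% of the KO Fn1 UMIs lay in 5 nuclei, and the others stood at 149.6 UPM. Those 5 nuclei had 2340 UPM of smooth muscle markers, against 1173 in the others. Values of clusters 9, 15 and 16 are therefore not read as levels of those cell types. All 9 smooth muscle markers were above 0 in both libraries of these 3 clusters, and their part in the ratios was not tested.

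Bulk colon and colon nuclei gave different pictures for Postn. In bulk tissue it was lower in every KO-labelled colon library than in any WT library, at a mean of 508 against 729 CPM, whereas in nuclei it was 4.78 times as high in KO over all nuclei and 3.99 and 2.41 times in clusters 1 and 6. Postn was not alone in this. Aspn had a lower mean in KO-labelled bulk colon (87.3 against 120 CPM, overlapping) and a ratio of 1.97 in nuclei. Thbs1, Vcan and Sparc had ratios of 3.31, 1.49 and 3.07 in nuclei. Their log2 fold changes in bulk colon were -0.18, -0.58 and -0.53 without KO-labelled t4, though above 0 with all libraries. For Fn1 both assays gave the higher level in KO, at 10718 against 3803 CPM in bulk and a ratio of 3.41 in nuclei. The Tnc mean was also higher in both, at 2386 against 956 CPM and a ratio of 3.24. Nuclear and total RNA differ in what they contain, and the animals behind each assay are not given, so the 2 assays cannot be compared further.

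Accessible regions within 1000 bases of a start site were called for 5 of the 9 genes: Fn1 in both libraries, Thbs1 and Tnc in WT, and Postn and Thbs2 in KO. Regions were called separately in each library, so a region found in only 1 of them does not show a difference. At Fn1 the regions spanned chr1:71652469-71654028 in WT and chr1:71652662-71653784 in KO. Of 720 WT smooth muscle-like nuclei 38 had a cut in the WT region, and of 320 KO nuclei 16 had a cut in the KO region. Other classes had cuts there too, among them 5 of 57 WT Cajal-like nuclei in the WT region. The regions were called separately and differ in width, so these counts are not compared between libraries. The WT region at Tnc, which holds the promoter stretch shown, had cuts in 23 of 720 WT smooth muscle-like nuclei. It also had cuts in 7 of 134 enteric neuron-like and 3 of 49 lymphatic endothelial-like WT nuclei. None were found in the 57 WT Cajal-like nuclei, the class highest in Tnc UMIs. The KO region at Postn had cuts in 7 of 320 KO smooth muscle-like nuclei.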

How the data were processed

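Muscularis of colon and jejunum was measured by bulk RNA-seq in 12 libraries, and colon nuclei in 2 libraries. The authors deposited read counts per gene, and the submitters' processing notes name STAR 2.0.4b, featureCounts 1.4.5, edgeR and Cell Ranger with the GRCm38 and mm10 builds. Per the file headers, the nuclei matrices hold counts of genes and of accessible regions. All gene values in them were even numbers (0 odd values, against 11.6% and 11.5% of region values), so they were divided by 2. That they are doubled UMI counts is inferred from the values.

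Repeated identifiers were dropped (276 rows), and 20886 of 40481 genes were tested in edgeR 4.0.16 (R 4.3.3) with TMM scaling, 4 groups in 1 quasi-likelihood fit and Benjamini-Hochberg adjustment over all genes. The threshold was an adjusted p under 0.05. DESeq2 1.42.0, limma 3.58.1 (voom), other filters and each library left out in turn were alternatives. The fit was tested on simulated data. No pair of replicates was close enough to be repeat deposits of 1 library (chi-square at least 57.1 for each gene on average). Whether tags shared between tissues pair the libraries is not stated. The main fit has no pairing, and a fit with the tags as a block is given with the alternatives.

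Nuclei with at least 500 UMIs, at least 200 genes and under 5% mitochondrial UMIs were kept. Scrublet marked 7 WT and 10 KO nuclei as doublets. At 0.265% and 0.627% this is too few to count as a working filter, so doublets were in effect hardly removed. Clusters came from 2000 variable genes without the 9 genes, 30 components, 15 neighbours and Leiden clustering in scanpy 1.11.5. They were named by a marker score chosen after seeing the data. Intervals are exact (Poisson or binomial, 95%) and cover counting error only.

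The 9 genes and the lists were chosen with earlier results of these data known. Of each list the genes with the smallest p were named, besides those that passed. The genes most like a member were the 3 with the highest r among genes of average log2 CPM of at least 1.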

Additional observations from a re-analysis of the deposited data

How the results depend on the processing

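In bulk tissue, 45 single values of the 9 genes were recomputed under 918 alternatives in all. Of these, 852 kept sign and side of the threshold, and 47 changed the sign of a value that was not called. A further 17 newly passed the threshold and 2 reversed. None of the 45 values was called in the main fit, so none could lose a call. In jejunum, where edgeR called 0 of the 9 genes between KO-labelled and WT, DESeq2 called 3, leaving out each library in turn gave 0 to 1 (Fn1, without KO-labelled colon t4), and leaving out KO-labelled colon t4 and jejunum m1 together gave 2. Between WT tissues, DESeq2 called 1, the WT libraries alone gave 4, single libraries left out gave 0 to 1 (Postn, without KO-labelled jejunum m1), and both together gave 5. Between KO-labelled tissues, single libraries left out gave 0 to 1 (Postn, without KO-labelled jejunum m1), and both together gave 1. The Postn value between KO-labelled tissues ranged from -1.57 to 1.30 when single libraries were left out, and was 1.12 without both. In colon and in the interaction all alternatives called 0. The cause of these changes was not tested.

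Over all genes the number called moved more. It was 81 in colon (960 by DESeq2, 0 in the colon libraries alone, 7 to 180 with single libraries left out), 45 in jejunum (805, 21, 2 to 172), 325 between WT tissues (1160, 904, 79 to 557), 270 between KO-labelled tissues (1427, 4, 40 to 613) and 0 in the interaction (37 by DESeq2). Libraries of the same genotype and tag did not deviate together between tissues (r from -0.163 to 0.1). With 3 libraries a group this cannot tell whether the tags pair the libraries. With genotype and tag as a replicate block, 0 of the 9 genes were called between tissues or in the interaction, and 29, 3 and 0 of all genes. In nuclei, 9 of 32 alternatives moved a level beyond its interval. Fn1 in smooth muscle-like nuclei went from 2484 to 2212 UPM (thinned) and 2282 (nuclei above 10000 UMIs left out, chosen after seeing the data). With thinning, Postn in lymphatic endothelial-like nuclei went from 1634 to 899 and Thbs2 in fibroblast-like nuclei from 137 to 203. With at least 1000 UMIs per nucleus, Tnc in Cajal-like nuclei went from 2967 to 2692 and Thbs1 in blood endothelial-like nuclei from 303 to 202. Sparc in mesothelial-like nuclei went from 792 to 879.9, 912 (doubled clustering resolution) and 648 (thinned). With 3 libraries a group and 1 library of nuclei per genotype, small differences were not detectable at this depth.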
